A study of Strongylocentrotus droebachiensis with 6 samples.

Results

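The gene dri encodes the sea urchin form of Deadringer, a transcription factor with an ARID (AT-rich interaction) DNA-binding domain. It was chosen, from earlier results on the same data, for its lower level in half-size embryos, and it is 1 row of the 31261 rows in the deposited table. That choice used the comparison of half-size with control embryos, so the level of dri in these groups is described here and not tested. In sea urchin embryos dri is known from 2 gene regulatory networks. In the skeletogenic mesenchyme, the cells that leave the vegetal plate and build the larval skeleton, it acts below the regulators Alx1 and Ets1. In the oral ectoderm, the side of the embryo where the mouth forms, it works beside Goosecoid (Gsc) and Hnf6. The mesenchyme blastula is the stage at which the skeletogenic cells enter the blastocoel, and in the purple sea urchin dri is used first in these cells and then in the oral ectoderm.

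The embryos were wild-type Strongylocentrotus droebachiensis, the green sea urchin. Half-size embryos (3 samples) grew from blastomeres separated at the 2-cell stage, 3.5 hours after fertilisation, by a wash in seawater without calcium and magnesium and passage through a needle. Control embryos (3 samples) were their intact siblings. Both were raised at 8 °C to 46 hours after fertilisation. Eggs for the separation experiment were kept in 1 mM aminotriazole (ATA), which keeps the fertilisation envelope soft. The labels do not say whether the control embryos were also kept in ATA or passed through the wash or the needle, how many embryos made up a sample, or from which parents they came. RNA came from whole embryos, so fewer dri-expressing cells and less dri RNA per cell cannot be told apart, nor can the skeletogenic and the oral ectoderm share of the signal.

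Values are normalised read counts, that is, reads per gene after the authors' division by one size factor for each library. Library totals ran from 1804336 to 2294541 reads. The file names columns by group only, without replicate numbers. Each half-size library shared its gene-by-gene deviations with 1 control library (r = 0.76, 0.63 and 0.52 over 11129 rows), and these 3 pairs, found from the values and not stated in the labels, are called A, B and C. The mean square between pairs exceeded that between groups in 78.1% of these rows, so results are given by pair. The pairs were picked for their correlation over the same rows, and the pair mean square has more degrees of freedom than the group one. Both raise this share, so its size is not read as the strength of the pairing. All 6 skeletogenic mesenchyme markers present by name (of 10 fixed) were above 0 in every library, as were the 4 oral ectoderm markers present by name (of 7).

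dri was lower in half-size embryos in every pair, as were 12.1% of tested rows. It had 150, 74.8 and 95.7 normalised read counts in the half-size libraries of pairs A, B and C, against 345, 156 and 249 in the control libraries. These values rest on 151, 85 and 79 reads in half-size and 337, 181 and 249 reads in control libraries. The highest half-size value, in pair A, lay just under the lowest control value, in pair B, so the groups did not overlap. Half-size lay below control without overlap in 2.84% of the 18016 tested rows, a share from which nothing is read for dri because it was chosen on this contrast.

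The mean was 107 ± 38.6 for half-size embryos and 250 ± 94.5 for controls (SD, n = 3 each). On the log2(count + 1) scale, on which all differences below are given, half-size minus control was -1.21 ± 0.34 (SE from limma-trend across all rows). This is a ratio of 0.434 to the control level. By pair the dri differences were -1.20, -1.05 and -1.37. The authors' deposited table gives dri a log2 fold change of -1.23 with a standard error of 0.37. In limma-trend 0 of 18016 rows (0%) passed an adjusted p of 0.05, with 242 rows (1.34%) at an unadjusted p under 0.05. On the recovered reads edgeR called 0 rows and DESeq2 4. With the pair as a block these counts were 3 in limma-trend (0.0167% of rows, 950 at an unadjusted p under 0.05), 11 in edgeR and 22 in DESeq2, and the pairs behind them were picked for their correlation.

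**Figure D1:**
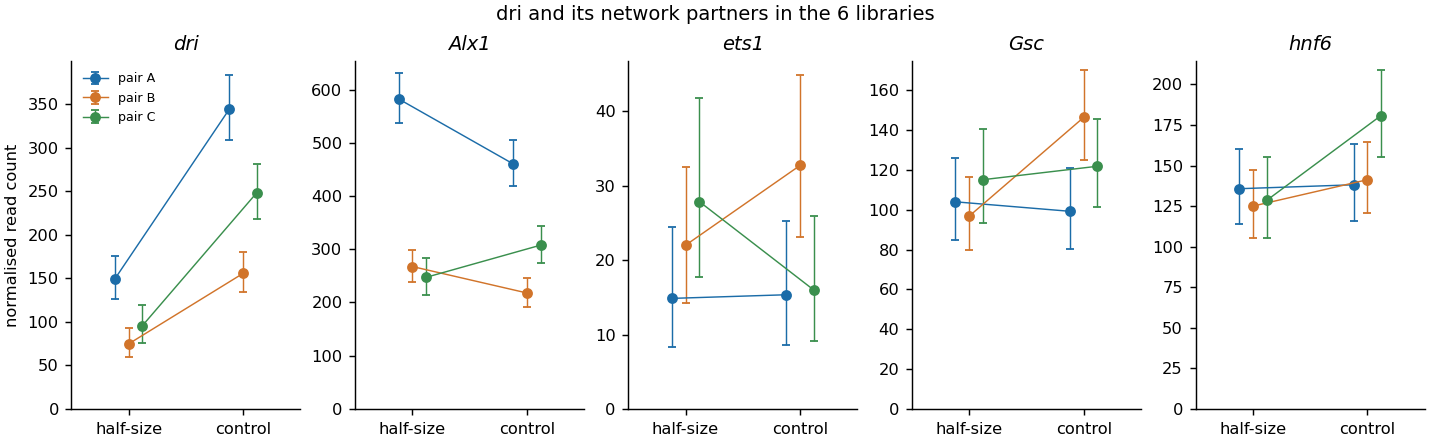
Normalised read counts of dri and its 4 network partners (y axes, each from 0) in half-size and control libraries. Points of one colour are the libraries of a pair, and bars are exact 95% Poisson intervals of the reads. The dri values lie between 74.8 and 150 in half-size and between 156 and 345 in control libraries, while the groups of Alx1, ets1 and Gsc overlap.

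Ordered by level, dri was highest in control A, then control C, control B, half-size A, half-size C and half-size B. Exact 95% Poisson intervals of the reads, which cover counting error only, tell some neighbours in this order apart. Control A (309 to 384) and control C (219 to 282) did not overlap in their intervals, nor did control C and control B (134 to 180). Control B and half-size A (127 to 175) overlapped widely, so the control library of one pair and the half-size library of another were at the same level within counting error. Half-size A stood above half-size C (75.8 to 119), and half-size C and half-size B (59.8 to 92.5) overlapped.

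Both groups placed the pairs in the same order, A above C above B. The highest library exceeded the lowest 2.00-fold among half-size and 2.21-fold among control embryos, which is close to the difference between the groups. Within groups the SD of dri was 0.54 on the log2 scale, against 0.12 from counting error alone. Of 2316 rows with a mean count within a factor of 2 of that of dri, 86.5% had a smaller within-group SD, and their median was 0.29. Between-pair variation made up most of this spread. The mean level of a pair varied with an SD of 0.53 for dri, against a median of 0.25 in those rows. The half-size minus control difference varied far less from pair to pair, with an SD of 0.16 against a median of 0.24. Counting error alone gives SDs of 0.14, 0.19 and 0.19 for the dri differences of pairs A, B and C, so at this depth the 3 differences could not be told apart. Among the 2316 rows, 1 had a lower log2 difference than dri, and among all tested rows 0.955% did. Nothing is read from this rank, because dri was chosen on this difference.

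**Figure D2:**
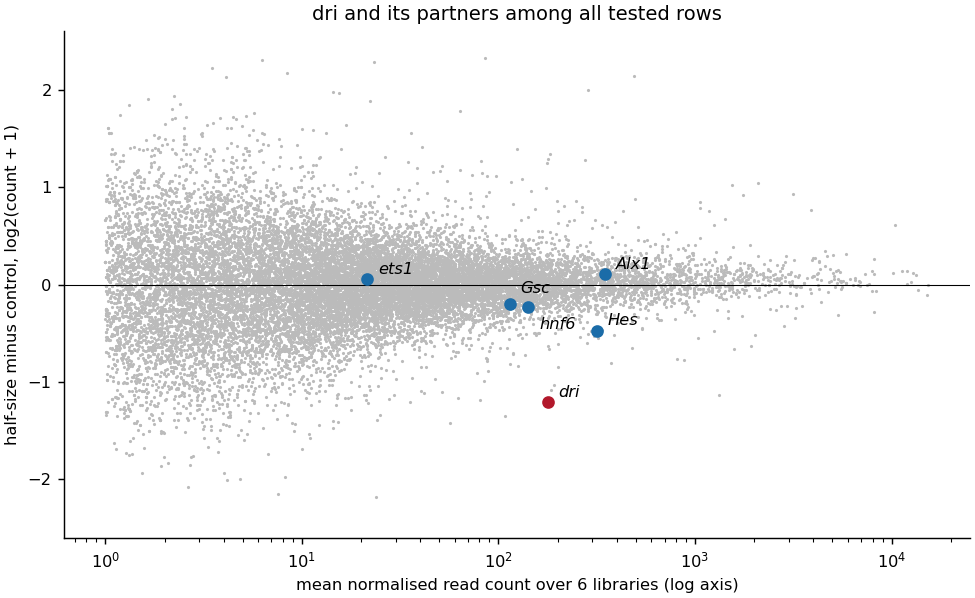
Half-size minus control log2 difference (y axis) against mean normalised read count over the 6 libraries (x axis, log scale) for all 18016 tested rows, with dri in red and its partners and Hes in blue. dri, chosen on this difference, lies at -1.21, near the lower edge of rows with its level. Its 4 partners lie between -0.23 and 0.11.

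The regulators above dri in the skeletogenic network passed no test and had group differences near 0. Alx1, the homeobox gene that sets skeletogenic fate, had 582, 268 and 247 normalised read counts in half-size A, B and C, against 460, 218 and 308 in control A, B and C. It was higher in half-size embryos in pairs A and B and lower in pair C, and the groups overlapped. Its log2 difference was 0.11 (95% interval -0.71 to 0.92, limma-trend), with an adjusted p of 1.00. With the half-size A library left out it was -0.29, so its sign rests on single libraries.

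The ETS-family gene ets1, which works with Alx1 in the same cells, was weakly counted, with 15 to 38 reads per library. It had 14.9, 22.0 and 27.9 normalised read counts in half-size A, B and C, against 15.3, 32.7 and 15.98 in control A, B and C. The groups overlapped and the pairs went in different directions. The log2 difference of 0.06 had a 95% interval of -0.84 to 0.95 (limma-trend adjusted p of 1.00), a wide interval.

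In the oral ectoderm, Gsc, a homeobox repressor gene, had 104, 96.8 and 115 normalised read counts in half-size A, B and C. The control libraries had 99.3, 146 and 122. The difference came mainly from pair B, at -0.59 on the log2 scale, with 0.07 and -0.08 in pairs A and C. Over all libraries it was -0.20 (95% interval -0.71 to 0.30, limma-trend adjusted p of 1.00), -0.07 without control B and -0.34 without control A.

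The gene hnf6, a one-cut homeobox factor later restricted to the ciliary band, had 136, 125 and 128 normalised read counts in half-size A, B and C, against 138, 141 and 181 in control A, B and C. All 3 half-size values lay below all control values, as in 2.84% of tested rows, by a margin of 2.42 counts, within counting error. Its log2 difference was -0.23 (95% interval -0.69 to 0.23, limma-trend adjusted p of 1.00), and -0.11 without control C. No test compared a partner with dri, because dri was chosen on this contrast.

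**Figure D3:**
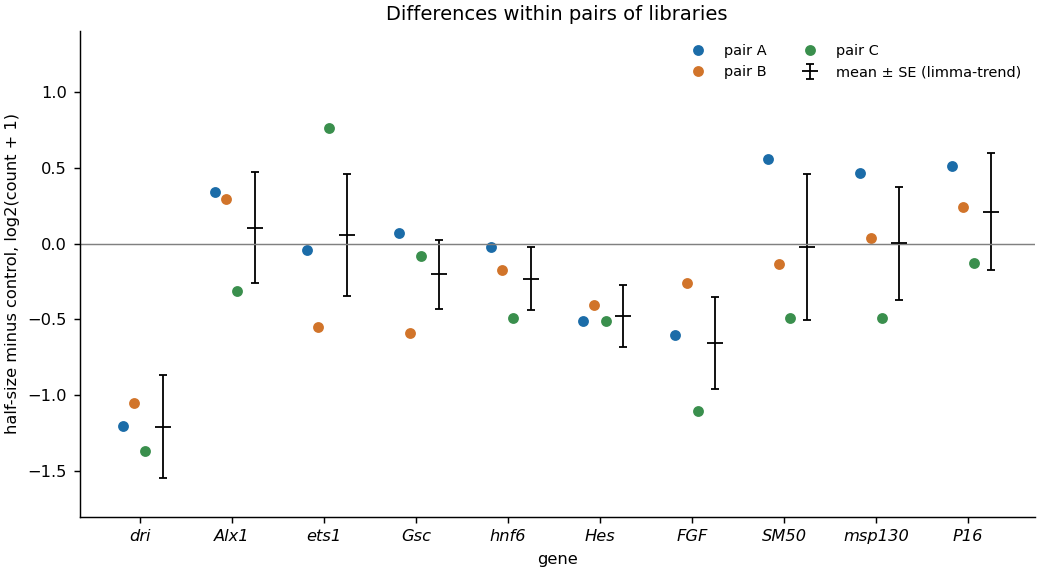
Half-size minus control differences of log2(count + 1) (y axis) for dri, its 4 partners, Hes, FGF and 3 skeletogenic effector genes (x axis). Coloured points are the 3 pairs and black bars the limma-trend mean with its SE. dri is at -1.20, -1.05 and -1.37, and the pairs of Alx1, ets1, Gsc and the effectors lie on both sides of 0.

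Setting dri against each partner within a library removes any common scaling of that library. The lengths of the genes were not used, so only differences of these log2 ratios between libraries are read, not the ratios themselves. The ratio of dri to Alx1 was -1.95, -1.82 and -1.36 on the log2 scale in half-size A, B and C, against -0.42, -0.48 and -0.31 in control A, B and C. The SD of this ratio was 0.09 among control and 0.31 among half-size libraries. Counting error alone gives SDs of 0.12 for dri and 0.08 for Alx1. The control SD is thus no wider than counting error, and nothing is read from its small size. The mean of the log2 ratio was 1.31 lower in half-size embryos. Both genes were highest in pair A and lowest in pair B among controls, and both were highest in pair A among half-size libraries.

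The ratios to the other partners varied more among controls, with SDs from 0.61 to 1.14. Relative to hnf6, dri was lower in half-size embryos with log2 differences of -1.17 (A), -0.87 (B) and -0.88 (C). Relative to Gsc the differences were -1.27, -0.46 and -1.29, and the groups overlapped. Relative to ets1 they were -1.16, -0.50 and -2.13, also with overlap, and the counting error of ets1 enters them. Each of these ratios uses the dri values on which the gene was chosen, so none was tested.

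**Figure D4:**
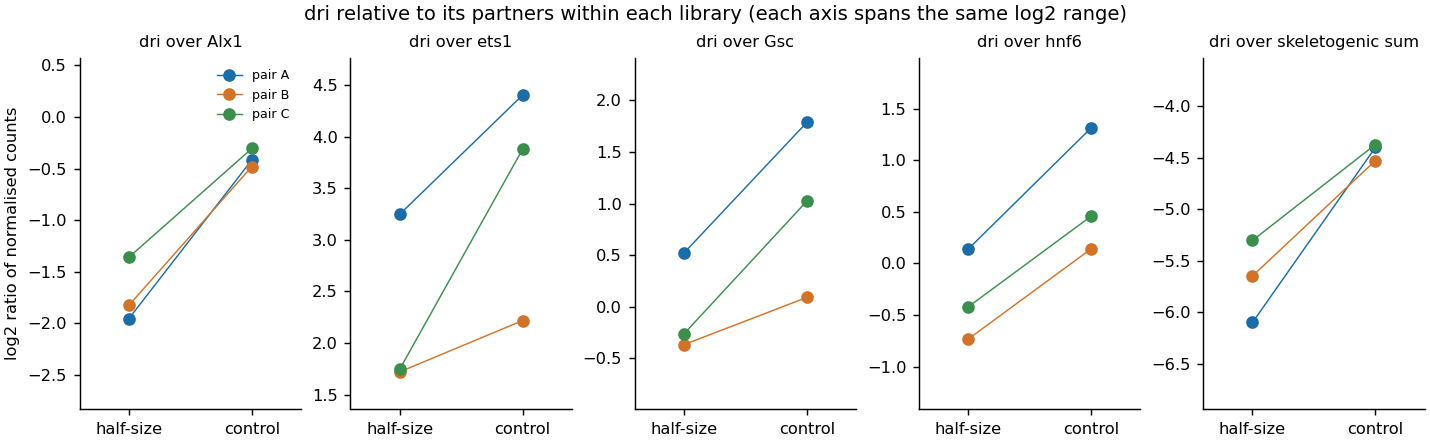
Log2 ratio of dri to Alx1, ets1, Gsc, hnf6 and the sum of 6 skeletogenic markers within each library (y axes, all spanning the same range) in half-size and control embryos, with lines joining pairs. The control ratios to Alx1 lie between -0.48 and -0.31 and those in half-size embryos between -1.95 and -1.36.

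Marker sums of the cell types that use dri were measured beside it. The 6 skeletogenic markers (Alx1, ets1, SM50, SM37, msp130 and P16) summed to between 3798 and 10313 normalised read counts in half-size and between 3621 and 7307 in control libraries. The effector gene msp130 supplied most of it, with a mean of 3108 over all libraries, against 347 for Alx1 and 21.5 for ets1. By pair A, B and C the half-size minus control log2 difference of this sum was 0.50, 0.07 and -0.44, so it had no common direction. Relative to it the dri difference was -1.70, -1.12 and -0.93 on the log2 scale. The 4 oral ectoderm markers (Gsc, Not, FoxG and FoxA) summed to between 2940 and 4730 in half-size and between 3236 and 4998 in control libraries. In every pair the half-size library had the lower sum, with log2 differences of -0.08, -0.24 and -0.14. FoxA, which is also an endoderm gene, supplied most of it. The difference of dri relative to this sum was -1.12, -0.81 and -1.23 by pair. Between group means, it was -1.25 relative to the skeletogenic and -1.05 relative to the oral sum. Relative to aboral ectoderm, endoderm, apical neuroectoderm and pigment and blastocoelar cell sums it was -1.29, -1.13, -1.06 and -0.92. A lower ratio was thus not particular to sums of the cell types that use dri. The part of cell number in the dri difference was not tested. Sums of whole-embryo RNA cannot tell it apart from RNA per cell.

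Skeletogenic effector genes encode the spicule matrix and cell surface proteins that lie below Alx1, ets1 and dri. Of the 7 measured (SM50, SM37, SM30A, SM29, PM27, msp130 and P16), 0 passed the test in either direction, and their median log2 difference was 0.00155, beside -0.000467 over all tested rows. That median turned to -0.62 without half-size A and to 0.34 without half-size C, and was 0.21 in edgeR, so it has no settled direction. P16, a small acidic transmembrane protein gene of biomineralisation, had 1446, 535 and 669 normalised read counts in half-size A, B and C, against 1012, 452 and 732 in control A, B and C. SM29, a spicule matrix gene, had 808, 208 and 248 in half-size A, B and C, against 579, 223 and 378 in control A, B and C. For both, pair A stood far above the others and the groups overlapped. Of the other skeletogenic regulators, erg, snail and delta were measured and 0 passed. The Notch ligand gene delta had a log2 difference of -0.14 ± 0.24 (SE), and snail, a zinc-finger gene, had 0 to 7 reads per library.

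Effectors and dri did share a library pattern once the group means were removed. This measure leaves out the contrast on which dri was chosen, but it carries little information, since each group has 3 libraries and many genes follow the pairs. The 6 points of each correlation share their libraries with all genes, and it is given as a description. Pearson's r of the deviations with dri was between 0.83 and 0.98 for the 7 effectors, all of them at or above 0.5, a level that 28.9% of 11128 rows reached. P16 had the highest r of the 7. All 7 were highest in pair A in both groups, as dri was. Alx1 had r = 0.93 and ets1 r = -0.85. Of the other skeletogenic regulators with a mean of at least 10, erg, an ETS-family gene, had r = 0.85 and delta r = 0.04. The high values of skeletogenic effectors in pair A were known from earlier results on these data.

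By the same measure Gsc had r = -0.61 and hnf6 r = 0.20 with dri. Of 9 other oral ectoderm and dorsoventral genes, 4 had an r above 0, a share near the 50.2% of all rows. FoxA (0.75) and otx (0.65), a homeobox gene, reached 0.5, and eve was lowest at -0.96. Of 8 aboral ectoderm regulators, 1 had an r above 0 and the median was -0.70. NK2.2, a homeobox gene, had the lowest at -0.99, with 324, 557 and 461 normalised read counts in half-size A, B and C, against 421, 821 and 621 in control A, B and C. It was thus lowest in pair A and highest in pair B in both groups, the reverse of dri.

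**Figure D5:**
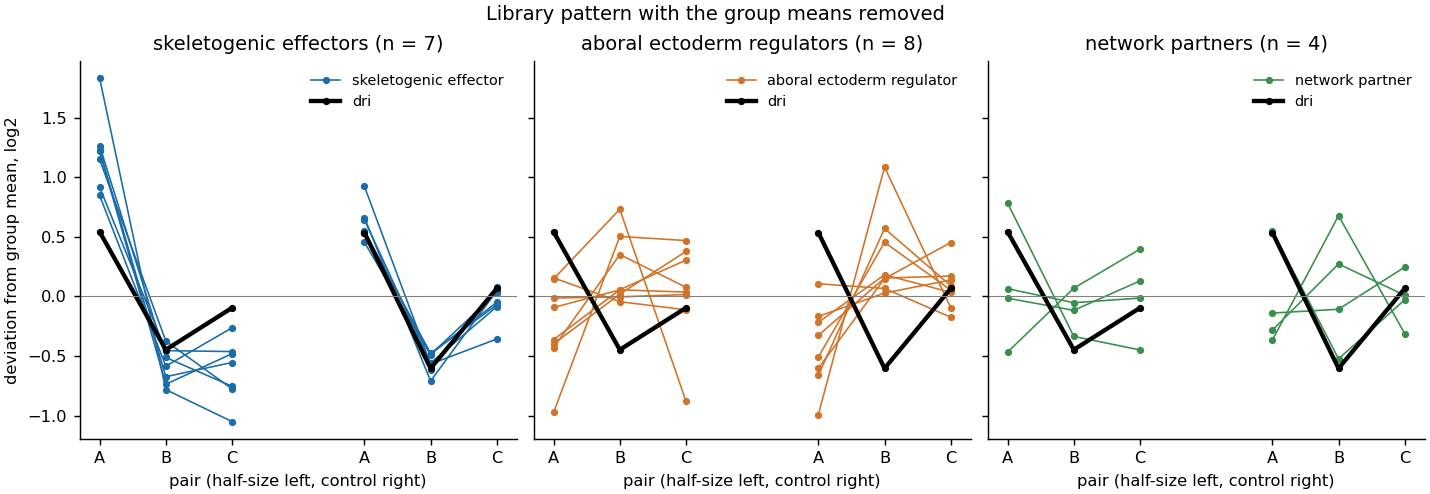
Deviation of log2(count + 1) from the group mean (y axis) in each library (x axis, half-size then control, pairs A, B and C) for 7 skeletogenic effectors, 8 aboral ectoderm regulators and the 4 network partners, with dri in black in each panel. dri and the effectors are highest in pair A of both groups, and most aboral regulators are low there.

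The tests of the ectoderm lists, adjusted over all rows, passed for no member. Of 9 oral ectoderm and dorsoventral genes 4 had negative log2 differences, with a median of 0.02 (-0.04 without control C, 0.09 without control B). Nk1, a homeobox gene, had the smallest unadjusted p of them, with 66.4, 44.9 and 27.9 normalised read counts in half-size A, B and C, against 82.9, 97.3 and 45.0 in control A, B and C. CHRD, the chordin gene for a secreted BMP antagonist, had a log2 difference of 0.33 ± 0.24 (SE). Of 8 aboral ectoderm regulators 7 had negative differences, beside 50.1% of all tested rows, with a median of -0.45. The list was chosen with earlier results of these data known, so its count and median are a description only. That median was -0.25 without control B, -0.26 without half-size A and -0.66 without control A. IrxA, an Iroquois homeobox gene, had 92.1, 80.1 and 76.4 normalised read counts in half-size A, B and C, against 130, 149 and 161 in control A, B and C, without overlap. Dlx, a distal-less homeobox gene, had 40.6, 54.6 and 70.3 in half-size A, B and C, against 70.6, 120 and 148 in control A, B and C, again without overlap and by 0.314 counts only. Their log2 differences were -0.81 ± 0.21 and -0.99 ± 0.33 (SE), at a limma-trend adjusted p of 1.00 for each. Hbox7, named here after its values were seen, also lay lower without overlap, at a log2 difference of only -0.23. In all, 3 of the 8 did so, beside 2.84% of all tested rows, which is likewise a description. Ets4, an ETS-family gene named here after its values were seen, went the other way at 1.27 ± 0.54 (SE, limma-trend adjusted p of 1.00). It had 51.5, 145 and 142 normalised read counts in half-size A, B and C, against 20.5, 89.6 and 38.96 in control A, B and C, with overlap.

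In the other territories 0 of 4 non-skeletogenic mesoderm, 0 of 5 endoderm and 0 of 3 apical neuroectoderm genes passed in either direction. Their median log2 differences were -0.29, -0.08 and 0.41. Without single libraries these ran from -0.54 (without half-size A) to -0.12 (without half-size C), from -0.41 (without half-size A) to 0.03 (without control A), and from -0.07 (without control A) to 0.44 (without half-size B). GATAe, an endoderm transcription factor gene counted in both of the first lists, differed by -0.54 ± 0.22 (SE) and gcm, a pigment cell regulator, by -0.53 ± 0.56. FoxA, which like otx is counted in both the oral ectoderm and the endoderm list, differed by -0.22 ± 0.31. The apical genes NK2.1 and FoxJ1 differed by -1.03 ± 0.39 and 0.41 ± 0.22. No row other than dri carried a name of the ARID family. LOC rows are unnamed in the file.

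The row most like dri over the 6 libraries was Hes, a gene of the Hairy/Enhancer of split family of basic helix-loop-helix repressors. It ranked 1 of 11128 rows, with a Pearson's r of 0.998 for log2(count + 1). Hes had 304, 234 and 257 normalised read counts in half-size A, B and C, against 434, 310 and 367 in control A, B and C. Like dri it was lower in every half-size library than in any control library, by a smaller margin, as were 2.84% of tested rows without overlap. Both groups ordered the pairs A, C, B, an order found in both groups in 7.48% of rows with a mean of at least 10. Hes was picked by an r that includes the group difference. Its separation of the groups and its pair order largely follow from that pick, so nothing is read from them. The log2 difference of Hes was -0.48 ± 0.20 (SE), with -0.51, -0.40 and -0.51 in pairs A, B and C. It did not pass over all rows (limma-trend adjusted p of 1.00, 0.587 with the pair as a block). With the group means removed Hes still had r = 0.996 and ranked 14.

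Of the 192 named rows FGF, a fibroblast growth factor gene, came next at r = 0.949, which was rank 15 over all rows. It had 100, 66.0 and 67.9 normalised read counts in half-size A, B and C, against 152, 79.2 and 147 in control A, B and C, and the groups overlapped. SRCR12, a scavenger receptor gene, soxd1, a Sox-family gene, and PMCA, a plasma membrane calcium pump gene, followed with r = 0.921, 0.903 and 0.873. Over all rows these ranked 30, 41 and 77. Among rows without a gene name, LOC594381 and LOC582178 reached r = 0.990 and 0.985. In all, 13 rows (0.117%) had an r of at least 0.95. These correlations include the group difference and so favour rows that are lower in half-size embryos.

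With the group means removed the nearest named rows were HDAC1, a histone deacetylase gene, with r = 0.999, then Hes, sfk3, a Src-family kinase gene, H2A.F/Z, a histone variant gene, and CyI, a cytoskeletal actin gene. Only 192 of the 11128 rows carried a name, and over all rows these genes ranked 1, 14, 24, 34 and 80. Of these only Hes was also among the 5 named rows nearest by log2 values. HDAC1 had 1815, 1319 and 1500 normalised read counts in half-size A, B and C, against 1783, 1261 and 1552 in control A, B and C. It thus followed the pairs as dri did, while its group difference was 0.01 ± 0.20 on the log2 scale (SE). CyI had 1051, 334 and 539 in half-size A, B and C, against 487, 164 and 384 in control A, B and C. It had the pair order of dri and higher half-size than control values in each pair. LOC590530 and LOC592626, both at r = 0.998, were nearest among rows without a gene name. On this measure 346 rows (3.11%) had an r of at least 0.95, so the order of the pairs was common to many rows.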

How the data were processed

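The samples, 3 of half-size and 3 of control embryos, were sequenced as polyadenylated RNA after a stranded library preparation, per the labels' protocols. Bowtie2 2.2.2, DESeq and edgeR appear in the submitters' processing notes, without their roles. Gene identifiers are NCBI's for Spur_4.2, per the file headers, the assembly of another species, S. purpuratus, so differences between the species may have cost reads in both groups alike. The sources used here do not give the counting method or its strand setting, so reads of overlapping or antisense genes cannot be told apart.

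The deposited signal is gene read counts divided by a size factor per library. Dividing each column by its smallest value gave whole numbers, within 1e-06, for 100% of values, and these were taken as read counts. The authors' mean signal, log2 fold changes with errors and p-values are in the same deposited table. The submitters call the samples biological replicates and do not name their parents, so a p-value here covers the spread among these samples, which may be technical.

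Rows with a mean of at least 1 (18016) were tested with limma-trend on log2(count + 1) in limma 3.58.1 under R 4.3.3, with Benjamini-Hochberg adjustment over all of them and a threshold of 0.05. This scale understates changes of low genes. edgeR 4.0.16 and DESeq2 1.42.0, each with its own filter on low counts, ran on the recovered reads as alternatives, and the scripts were tested on simulated data. Pairs are the one-to-one assignment of half-size and control columns whose deviations had the highest mean correlation. No other correlation across the groups exceeded 0.00932. The gene lists (8) and markers were matched by symbol. Likeness to dri used rows with a mean of at least 10. Named genes were dri, its partners, every list member past the threshold or else the 2 with the smallest p, and by each measure the 5 named and 2 unnamed rows most like dri. erg, NK2.2, eve, otx, Ets4, Hbox7 and the members of sums were named outside this rule, after their values were seen. dri, its partners and the lists were chosen with earlier results of these data known. No sequences or gene coordinates were used here.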

Additional observations from a re-analysis of the deposited data

How the results depend on the processing

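dri was below 0 in all 21 alternative fits. Its log2 difference ran from -1.25 to -1.17 over scalings, filters, pseudocounts, tools and the replicate block, from -1.51 to -0.94 without single libraries and from -1.28 to -1.12 without single pairs. Leaving out 1 library unbalances the pairs. No replicate numbers could be used for a block, because the columns carry none, so the block uses the pairs that the values gave. limma-trend called 0 rows (242 at unadjusted p under 0.05), edgeR 0 and DESeq2 4, and leaving out single libraries gave 0 to 0. The replicate block raised this to 3 rows (limma-trend), 11 (edgeR) and 22 (DESeq2), and to 0 to 80 without single pairs; the cause was not tested. Alx1, between -0.29 and 0.38 without single libraries, turned negative without half-size A (-0.29), without control B (-0.16) and, with the block, without pair A (-0.00979). ets1, up to 0.40 without control B, turned negative in edgeR with TMM (-0.0116), size factors (-0.00330) or the block (-0.00468). It also did so without half-size C (-0.14), control A (-0.13) or control C (-0.10), and with the block without pair C (-0.30). Gsc (-0.34 to -0.07 without single libraries, -0.00730 without pair B) and hnf6 (-0.30 to -0.11, and -0.10 without pair C) kept their sign. The lists had 0 called members in all fits except 3 aboral regulators (block, without pair A; range 0 to 3), and 1 apical gene (DESeq2 with the block, and the block without pair C; range 0 to 1). Over all rows these fits called 80 (block, without pair A), 22 (DESeq2 with the block) and 31 (block, without pair C). Of 147 list medians under alternatives, 2 moved beyond the spread between libraries, endoderm (-0.41 without half-size A) and apical (-0.07 without control A). That spread is wide, and the effector median ran from -0.62 to 0.34 without single libraries. Rows with r of at least 0.95 to dri numbered 13, 346 with deviations from the group means, 7 with a mean of at least 50, and 27 to 73 without single libraries, an alternative added after the data were seen. Among dri and its partners depth limits ets1 most, at 15 to 38 reads per library.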
